A study of Rattus norvegicus with 3 samples.

Results

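The 10 genes described here encode RNA-binding proteins that set splicing and mRNA stability as neural progenitors become neurons: the PTB genes Ptbp1 and Ptbp2, the Hu genes Elavl2, Elavl3 and Elavl4, the Rbfox genes Rbfox1, Rbfox2 and Rbfox3, and the Nova genes Nova1 and Nova2. They were picked by symbol, as families known for this switch. All 10 were among the 29772 genes of the count matrices.

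PTBP1 is made in progenitors and in most cells outside the nervous system, where it holds back exons that neurons use, including an exon that the Ptbp2 transcript needs to escape decay. As neurons form, the microRNA miR-124 lowers PTBP1, PTBP2 protein appears, and the Hu, Rbfox and Nova proteins take over much of neuronal splicing. Counts from the 3′ end of transcripts add all splice forms of a gene together, so the values below are gene levels and say nothing of exon use or protein.

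The cells were wild-type rat cells, dissociated with papain from embryonic cerebral cortex and used fresh, with no treatment and no transgene named in the labels. The 3 libraries were labelled E14, E16 and E18 (embryonic days), with 1 library per label, made with a 10x Genomics Single Cell 3′ kit. The number of embryos behind a library, and their strain and sex, were not stated in the labels. The protocol text also describes cultured cells, multiplexing oligonucleotides and an antibody sort for human cells, and which of those steps these rat libraries went through is not known. With 1 library per label, and libraries of different labels not treated as replicates of each other, no p-value or standard error is given, and each 95% interval covers counting error only.

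Genes that mark developmental stage were out of step with the labels. In radial glia, the stem cells of the ventricular zone, Hmga2, a chromatin protein of early progenitors, stood at 12.3 CPM (a gene's unique molecular identifiers, or UMIs, scaled to the same total in every class and library) in the library labelled E14, 228 CPM in that labelled E16 and 21.5 CPM in that labelled E18. Aldoc, a glycolytic enzyme of later radial glia, stood at 735, 15.3 and 240 CPM in the same order. The library labelled E16 was thus the highest in the early gene and the lowest in the late gene, and every difference between libraries below is between labels, not between known ages. Values are given in the order E14, E16, E18 throughout.

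The files held 62740631, 80974234 and 73727823 UMIs. After filtering, 4286, 4977 and 5431 cells were left, with medians of 11193, 12274 and 10486 UMIs, and any pair of libraries shared 7 or 8 barcodes. Cells were clustered without the 10 genes, and clusters were named from marker genes. Radial glia numbered 372, 2927 and 1785 cells, intermediate progenitors (cells marked by Eomes, which arise from radial glia) 490, 464 and 1111, newborn excitatory neurons 1126, 317 and 1109, and maturing excitatory neurons 2159, 61 and 821. The classes bore their markers: the summed level of 12 radial glial markers was 5633 to 12462 CPM in radial glia against 587 to 1010 CPM in newborn neurons, and the summed level of maturing neuron markers was 9876 to 11210 CPM in maturing neurons against 4597 to 6163 CPM in newborn neurons and 313 to 945 CPM in radial glia. The 2 neuron classes thus share much of their marker signal. Intermediate progenitors held their own markers at a sum of 6499 to 6898 CPM, radial glial markers at 3025 to 4590 CPM and newborn neuron markers at up to 2213 CPM, where newborn neurons held 3700 to 4835 CPM of the last.

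The neuron classes were not made of the same clusters in the 3 libraries. In the library labelled E14, 86.3% of newborn neurons lay in a cluster led by Sstr2 and Unc5d. In the library labelled E18, 60.4% lay in a cluster led by Neurod1 and Cbln2. In the library labelled E16 they lay in 6 clusters, the largest with 27.1% of them, most with Ebf1, Ebf2 or Nhlh2 among their leading genes. All 61 maturing neurons labelled E16 came from 1 cluster led by Calb1 and Pcp4, so values for that class and label rest on few cells. Of the maturing neurons labelled E18, 62.9% lay in a cluster whose leading genes include Sox5 and Pcp4.

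The promoters of the PTB pair and the Hu trio are shown because these paralogs were high in different classes: Ptbp1 in radial glia while Ptbp2 differed little, and Elavl2 and Elavl4 in intermediate progenitors while Elavl3 was high in neurons. Each run is 300 bases, from 250 before to 50 after the transcription start in RefSeq on the GRCr8 assembly, written 5′ to 3′ on the gene's strand with CpG dinucleotides in capitals. RefSeq promoters were matched by symbol for 8 of the 10 genes, and Rbfox2 and Rbfox3 were not matched. Ptbp1 lies at chr7:10502908-10503207, Ptbp2 at chr2:210558228-210558527, Elavl2 at chr5:111202238-111202537, Elavl3 at chr8:28858964-28859263 and Elavl4 at chr5:130367614-130367913, all on the minus strand.
Ptbp1: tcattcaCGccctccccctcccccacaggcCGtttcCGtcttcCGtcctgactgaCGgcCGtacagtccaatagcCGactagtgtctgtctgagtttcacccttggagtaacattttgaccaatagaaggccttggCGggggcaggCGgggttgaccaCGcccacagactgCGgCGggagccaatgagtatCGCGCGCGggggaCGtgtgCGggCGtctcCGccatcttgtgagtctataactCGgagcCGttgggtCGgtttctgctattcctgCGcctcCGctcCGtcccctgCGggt
Ptbp2: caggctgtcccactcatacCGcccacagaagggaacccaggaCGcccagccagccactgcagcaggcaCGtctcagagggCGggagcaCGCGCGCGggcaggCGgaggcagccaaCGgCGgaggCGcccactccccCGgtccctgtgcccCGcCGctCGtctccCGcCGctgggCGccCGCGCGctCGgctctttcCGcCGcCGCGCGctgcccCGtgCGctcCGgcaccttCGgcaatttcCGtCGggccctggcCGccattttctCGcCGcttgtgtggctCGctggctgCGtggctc
Elavl2: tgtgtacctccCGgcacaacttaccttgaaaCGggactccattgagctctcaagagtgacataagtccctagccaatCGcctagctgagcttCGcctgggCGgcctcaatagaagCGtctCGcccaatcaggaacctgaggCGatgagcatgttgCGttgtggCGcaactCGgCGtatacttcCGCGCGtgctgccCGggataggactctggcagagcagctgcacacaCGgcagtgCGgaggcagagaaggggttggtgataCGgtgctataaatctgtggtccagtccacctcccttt
Elavl3: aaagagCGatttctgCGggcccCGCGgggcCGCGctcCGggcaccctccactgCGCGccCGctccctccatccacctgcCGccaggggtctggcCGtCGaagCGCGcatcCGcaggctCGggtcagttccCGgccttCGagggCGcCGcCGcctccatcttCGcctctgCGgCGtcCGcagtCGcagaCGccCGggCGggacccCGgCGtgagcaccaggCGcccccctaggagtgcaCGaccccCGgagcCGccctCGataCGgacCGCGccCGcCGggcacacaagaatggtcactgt
Elavl4: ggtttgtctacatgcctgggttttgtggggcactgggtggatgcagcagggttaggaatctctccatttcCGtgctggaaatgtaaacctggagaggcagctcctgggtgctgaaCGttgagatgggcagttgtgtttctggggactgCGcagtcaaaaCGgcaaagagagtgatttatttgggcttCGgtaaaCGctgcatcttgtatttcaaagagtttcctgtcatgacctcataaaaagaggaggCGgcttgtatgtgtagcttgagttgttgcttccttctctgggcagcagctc

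CpG counts differed within the PTB pair and within the Hu trio. Ptbp1 held 27 CpG dinucleotides, Ptbp2 39, Elavl2 19, Elavl3 42 and Elavl4 7, against a median of 7 over the 33469 promoters of the same length in the table. The other matched promoters held 5 in Rbfox1, 16 in Nova1 and 18 in Nova2. Elavl2 and Elavl4, whose levels moved together across classes, differed in CpG count, 19 against 7. The E-box letters CAGCTG, a palindrome, were in the promoters of Elavl2, Rbfox1 and Nova1, 3 of the 8 matched, against 15.1% of all promoters. The letters CATCTG, searched on both strands and not overlapping the first motif, were in 0 of the 8, against 16.6% of all. A match is a run of letters and not a shown binding site.

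A gene was compared between classes where its mean over the 2 sums was at least 5 CPM, as log2 of the ratio of (CPM + 1), and called where the ratio passed 2-fold. In newborn neurons over radial glia, 7 of the 10 genes were at least 2-fold higher in each of the 3 libraries, where 12.5%, 13.3% and 12.2% of all genes compared were. They were the same genes in each library: Elavl2, Elavl3, Elavl4, Rbfox1, Rbfox2, Rbfox3 and Nova2. Ptbp1 alone of the 10 was at least 2-fold lower in each library, where 18%, 17.7% and 16.8% of all genes were. The median log2 ratio of the 10 was 1.87, 2.15 and 1.93, against -0.13, -0.06 and -0.08 over all genes compared. Rbfox1 and Rbfox3 stood between 0.132 and 5.05 CPM in radial glia and passed the minimum through the neurons, so a high ratio was built into their entry and the counts are a description.

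Part of this difference was already present in intermediate progenitors, a class that also carried newborn neuron markers at up to 2213 CPM; their part in it was not tested. Elavl2, Elavl3, Elavl4, Rbfox2 and Rbfox3 were at least 2-fold higher there than in radial glia in every library, and Nova2 also in that labelled E16. The Nova2 log2 ratio of 1.23 was 0.32 with at least 2000 genes and at most 5% mitochondrial UMIs a cell, 0.97 with 10 CPM added and 0.99 thinned to 2000 UMIs. That made 5 of 10, 6 of 9 and 5 of 9 genes compared, where 4.83%, 5.13% and 4.83% of all genes were. Rbfox3 passed the minimum through the intermediate progenitors in the libraries labelled E16 and E18, so a high ratio was built into its entry there. From intermediate progenitors to newborn neurons, 3, 2 and 2 of 10 genes were at least 2-fold higher (Rbfox1 and Rbfox2 in each library, Nova2 in that labelled E14), where 8.17%, 10% and 8.02% of all genes were. Rbfox1 passed the minimum in that step through the neurons in the libraries labelled E16 and E18. In that step 2, 1 and 2 of 10 were at least 2-fold lower (Ptbp1 in each library, Nova1 in those labelled E14 and E18), where 9.05%, 9.69% and 8.94% of all genes were. In maturing neurons over radial glia, 6 of 10, 4 of 9 and 6 of 10 were at least 2-fold higher, where 13.8%, 15.9% and 15.9% of all genes were. Rbfox1 (labels E14 and E18) and Rbfox3 (labels E16 and E18) passed the minimum there through the neurons, and Nova1 through the radial glia. These counts too are a description. The 2 genes at least 2-fold lower there were Ptbp1 and Nova1 in each library, where 21.8%, 22.7% and 20.1% of all genes were.

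**Figure D1:**
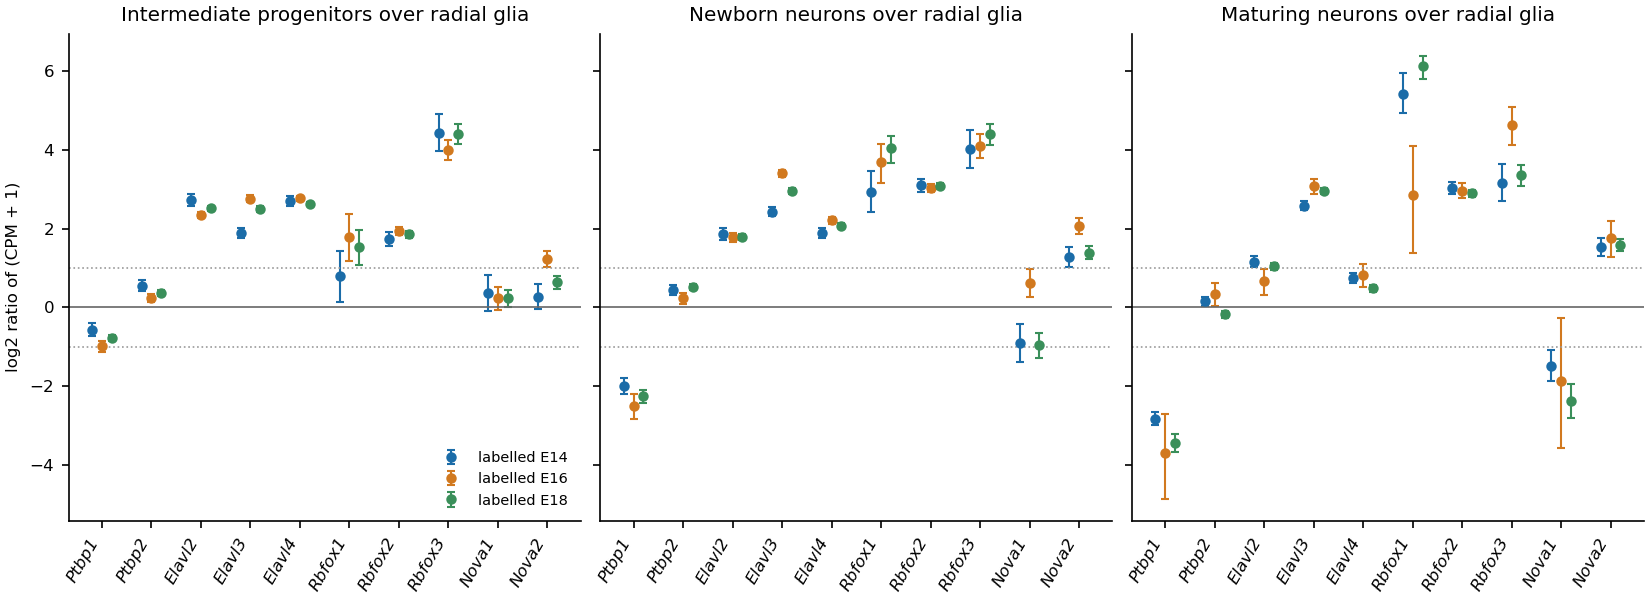
Log2 ratio of (CPM + 1) of each gene in intermediate progenitors, newborn neurons and maturing neurons over radial glia, 1 point per library with its 95% counting interval, and dotted lines at 2-fold. Rbfox1 is drawn although under the 5 CPM minimum in intermediate progenitors labelled E16 and E18 and in maturing neurons labelled E16. Ptbp1 lies below 0 in every panel, from -0.56 to -3.69, and Rbfox3 lies between 3.16 and 4.63 in every panel.

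Ptbp1, the progenitor form of the splicing repressor, was lower at each step of the lineage. Its level in radial glia was 129 (120 to 139), 175 (171 to 178) and 180 CPM (175 to 185). In intermediate progenitors it was 86.9, 87.7 and 105 CPM, and in newborn neurons 31.5 (28.0 to 35.3), 29.8 (23.6 to 37.3) and 36.7 CPM (32.9 to 40.9). In maturing neurons it was 17.3, 12.6 and 15.6 CPM, the E16 value from 7 UMIs. The ranges of neighbouring classes did not overlap at any step, so the descending order radial glia, intermediate progenitor, newborn neuron, maturing neuron held across all 3 labels.

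Against radial glia, the log2 ratios of Ptbp1 in intermediate progenitors were -0.56, -0.98 and -0.78, none past 2-fold. Over the alternatives they ran from -0.71 to -0.010, -1.08 to -0.33 and -0.87 to -0.27, and the E16 value passed 2-fold in 4 of them. Ptbp1 was 3.99-fold, 5.69-fold and 4.80-fold lower in newborn neurons, log2 ratios of -2.0 (-2.19 to -1.81), -2.51 (-2.84 to -2.20) and -2.26 (-2.42 to -2.11). In maturing neurons it was 7.10-fold, 12.9-fold and 10.9-fold lower, log2 ratios of -2.83, -3.69 and -3.45. Over the alternatives these ran from -3.11 to -2.35, -7.40 to -3.03 and -3.73 to -2.51, all past 2-fold. Every radial glial cluster lay above every neuron cluster: the 13 radial glial clusters with at least 50 cells ranged from 116 to 202 CPM, the 9 newborn neuron clusters from 13.9 to 40.9 CPM and the 6 maturing neuron clusters from 12.6 to 22.4 CPM. The size depended on the cell filter. With at least 2000 genes and at most 5% mitochondrial UMIs, which left 59 newborn neurons and 138 radial glia labelled E14, the Ptbp1 ratios were -0.64, -1.62 and -1.44, and the E14 value was no longer past 2-fold.

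Ptbp2, the neural form, differed far less between the classes. Its level was 128, 149 and 155 CPM in radial glia, 187, 175 and 200 CPM in intermediate progenitors, 174, 175 and 221 CPM in newborn neurons, and 142, 187 and 137 CPM in maturing neurons. No ratio to radial glia passed 2-fold in any library: in newborn neurons they were 0.44 (0.31 to 0.57), 0.23 (0.09 to 0.37) and 0.51 (0.43 to 0.59). In maturing neurons they were 0.15, 0.33 and -0.18, and the signs for E14 and E18 turned under alternatives, which ran from -0.16 to 0.29 and from -0.31 to 0.12. Ptbp2 transcripts were thus counted in radial glia at levels close to those of neurons, while Ptbp1 changed several-fold.

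**Figure D2:**
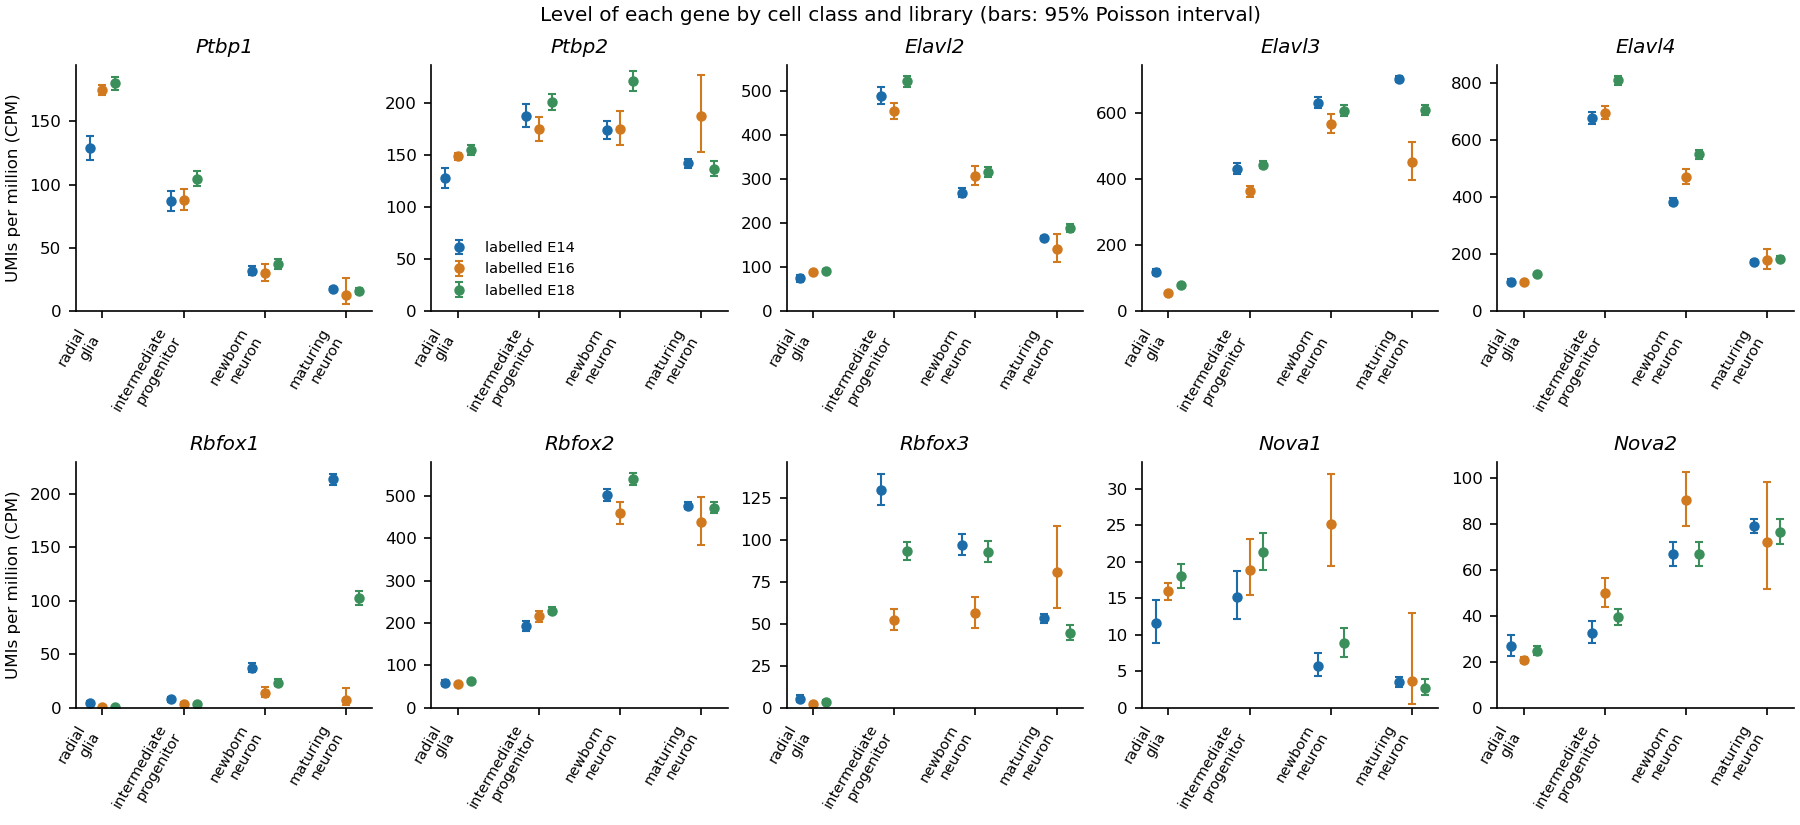
Level of each of the 10 genes in CPM by cell class, 1 point per library with its 95% Poisson interval, each panel on its own scale from 0. Ptbp1 steps down from radial glia to maturing neurons, Elavl2 and Elavl4 are highest in intermediate progenitors (up to 521 and 809 CPM), and Rbfox1 is highest in maturing neurons of the library labelled E14 (213 CPM).

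The ratio of Ptbp2 UMIs to Ptbp1 UMIs puts both changes in a single value that does not depend on the class total. Its height is not a ratio of molecules, since 3′ counts are not scaled between genes, and only its change between classes is read. It was 0.992 (0.892 to 1.10), 0.851 (0.823 to 0.879) and 0.860 (0.823 to 0.897) in radial glia and 2.16, 1.99 and 1.91 in intermediate progenitors. In newborn neurons it was 5.51 (4.87 to 6.26), 5.86 (4.59 to 7.56) and 6.01 (5.35 to 6.76), and in maturing neurons 8.22 (7.50 to 9.02), 14.9 (6.96 to 37.9) and 8.76 (7.4 to 10.4). The classes stood in this order in all 3 libraries, and only the intervals of newborn and maturing neurons labelled E16 overlapped.

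From radial glia to newborn neurons the ratio shifted 5.56-fold, 6.88-fold and 6.99-fold, log2 shifts of 2.48 (2.24 to 2.71), 2.78 (2.43 to 3.15) and 2.81 (2.63 to 2.99). Up to the intermediate progenitor the log2 shifts were 1.12, 1.23 and 1.16, and from it to newborn neurons 1.35, 1.56 and 1.65. The later step was the larger in each library, and its interval lay apart from that of the earlier step only for E18 (1.46 to 1.85 against 1.04 to 1.27). From newborn to maturing neurons the further shift was 0.58, 1.34 and 0.54. Under the stricter cell filter the log2 shift from radial glia to newborn neurons was 1.41, 1.92 and 2.11.

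**Figure D3:**
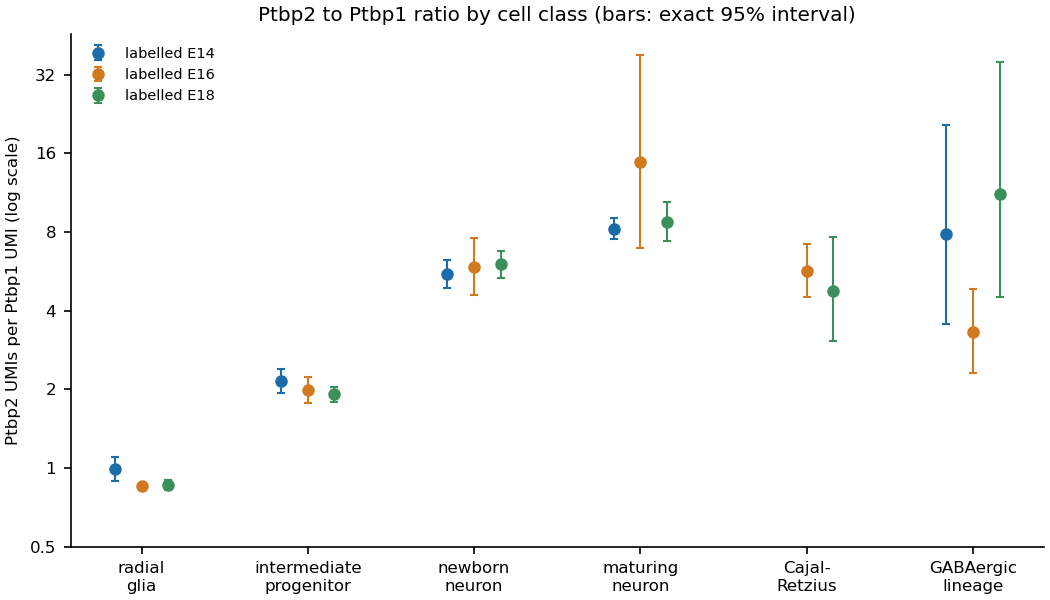
Ptbp2 UMIs per Ptbp1 UMI on a log axis by cell class, 1 point per library with its exact 95% interval. Radial glia lie between 0.851 and 0.992 and newborn neurons between 5.51 and 6.01, with intermediate progenitors between them.

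At the level of single cells the same change appeared as a change in which PTB gene was seen. Each cell was thinned to 2000 UMIs, which left out 0 to 21 shallower cells in a class of a library. A Ptbp1 UMI was then found in 23.1%, 28.7% and 28.7% of radial glia, 16%, 15% and 19.6% of intermediate progenitors, and 5.79%, 5.73% and 7.67% of newborn neurons. In maturing neurons the shares were 3.35%, 0 of 60 cells and 3.34%. The count of 0 allows a share of up to 5% with a UMI at this depth, and 9.84% of the same class had one without thinning. Without thinning the shares in radial glia were 77.7%, 84.7% and 83.5% and those in newborn neurons 22.6%, 20.5% and 25.6%, with median depths of 13256.5, 13597 and 12645 UMIs against 7450, 7870 and 7570. In 349 non-neural cells (erythroid, meningeal and microglial clusters, the last also with endothelial genes; median 20748 UMIs before thinning) the share was 16.9%, above those in neurons. These cells were not alike: Ptbp1 stood at 155 CPM in meningeal cells labelled E16 and at 10.6 CPM (7.66 to 14.3) in erythroid cells labelled E16, which is below every neuron value above.

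Cells with a Ptbp1 UMI and no Ptbp2 UMI made up 18.8%, 21.6% and 20.4% of radial glia, 4.28%, 3.50% and 4.78% of newborn neurons, and 2.42%, 0% and 2.10% of maturing neurons. Cells with a Ptbp2 UMI and no Ptbp1 UMI made up 16%, 17.6% and 18.4% of radial glia, 30.3%, 29.3% and 32.7% of newborn neurons and 23.7%, 31.7% and 24.1% of maturing neurons. Any Ptbp2 UMI was seen in 31.8%, 31.5% and 35.6% of newborn neurons, against 3.15% of the non-neural cells. At this depth most cells of every class showed neither gene, so the shares describe detection and not the share of cells that use a gene.

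**Figure D4:**
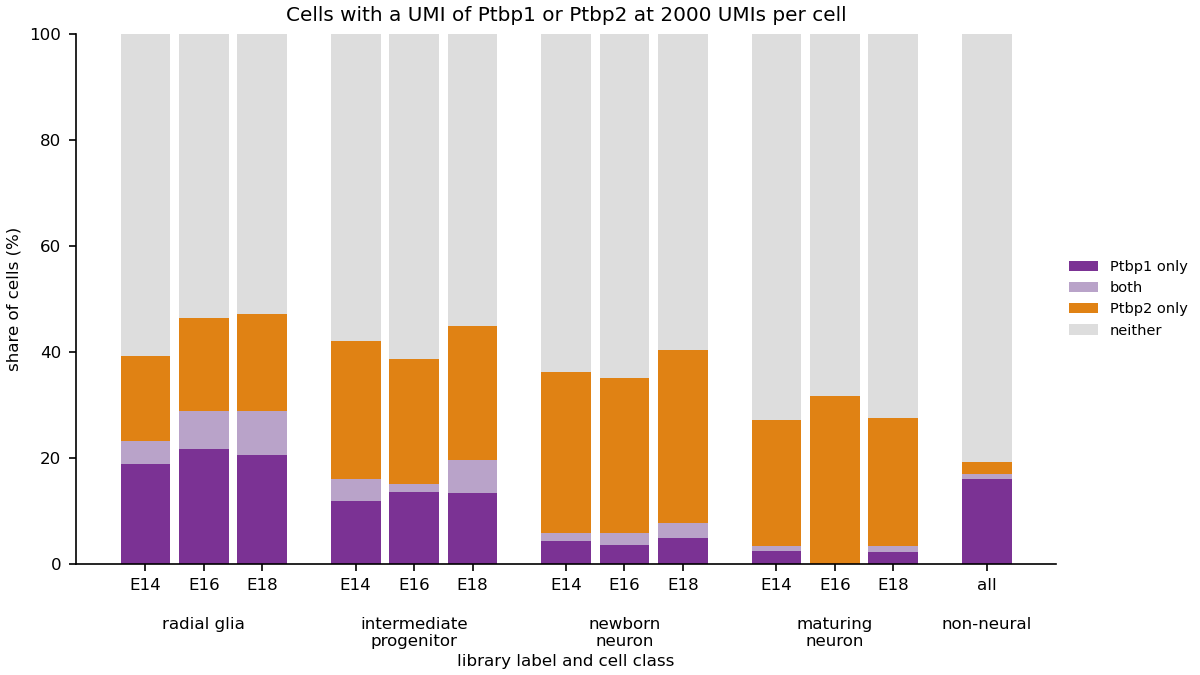
Share of cells, thinned to 2000 UMIs each, with a UMI of Ptbp1 only, of both PTB genes, of Ptbp2 only or of neither, by cell class and library label, with 349 non-neural cells of all libraries at the right. The Ptbp1-only share is 18.8% to 21.6% in radial glia and 3.50% to 4.78% in newborn neurons.

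Among the Hu genes, whose proteins bind U-rich and AU-rich elements and stabilise neuronal mRNAs, Elavl2 and Elavl4 were highest in intermediate progenitors and not in neurons. Elavl2 (HuB) stood at 73.4, 88.5 and 90.4 CPM in radial glia, 489, 453 and 521 CPM in intermediate progenitors, 268, 307 and 315 CPM in newborn neurons and 166, 140 and 188 CPM in maturing neurons. Elavl4 (HuD) stood at 102, 101 and 130 CPM, then 676, 695 and 809 CPM, then 383, 471 and 549 CPM, then 173, 178 and 182 CPM in the same classes. The ranges of the 4 classes did not overlap for either gene, with the order intermediate progenitor, newborn neuron, maturing neuron, radial glia.

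Elavl2 was 6.58-fold, 5.07-fold and 5.71-fold higher in intermediate progenitors than in radial glia, and Elavl4 6.56-fold, 6.84-fold and 6.20-fold. Elavl4 was then at least 2-fold lower in maturing than in newborn neurons in each library, with log2 ratios of -1.14 (-1.21 to -1.08), -1.40 (-1.70 to -1.10) and -1.59 (-1.67 to -1.51). It was under 2-fold at -0.78 for E14 at a clustering resolution of 2 and at -0.82 for E16 thinned to 2000 UMIs. In that comparison 1 of 9, 4 of 10 and 4 of 10 genes were at least 2-fold lower, where 5.55%, 9.04% and 5.44% of all genes were. In maturing neurons over radial glia Elavl4 did not pass 2-fold (0.75, 0.82 and 0.49). Over the alternatives these ran from -0.014 to 0.99, 0.43 to 1.37 and -0.0021 to 1.02, past 2-fold for E16 thinned to 2000 UMIs and for E18 under the stricter cell filter. Elavl2 passed it in the libraries labelled E14 and E18 only narrowly, at 1.16 and 1.05, and was under it in 4 alternatives for E14, down to 0.36 with a looser cell filter (at least 500 genes and at most 20% mitochondrial UMIs), and in 6 for E18, down to 0.90.

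In single cells thinned to 2000 UMIs, Elavl4 was seen in 70.3%, 70.9% and 75.0% of intermediate progenitors, 50%, 53.8% and 61.2% of newborn neurons and 27.8%, 38.3% and 26.9% of maturing neurons, against 1.15% of the non-neural cells. Elavl2 was seen in 55.5%, 55.0% and 59.3% of intermediate progenitors, 41.8%, 39.8% and 44.5% of newborn neurons and 1.15% of non-neural cells. Unthinned, the Elavl4 shares in intermediate progenitors were 97.6%, 97.0% and 99.1%.

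Elavl3 (HuC) followed a different course, with its highest levels in the neurons. It stood at 116 (107 to 125), 52.5 (50.4 to 54.6) and 77.0 CPM (73.6 to 80.5) in radial glia, 430, 362 and 442 CPM in intermediate progenitors, 630, 567 and 606 CPM in newborn neurons and 701, 450 and 608 CPM in maturing neurons. The ranges of newborn and maturing neurons overlapped, and those of intermediate progenitors and maturing neurons nearly touched (442 and 450 CPM). Elavl3 was 5.38-fold, 10.6-fold and 7.78-fold higher in newborn neurons than in radial glia. At 2000 UMIs a cell, 70.1%, 63.4% and 67.5% of newborn neurons showed an Elavl3 UMI, against 0.860% of non-neural cells.

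Elavl3 was also the gene of the 10 that differed most between radial glia of different labels, among those with enough counts. It was 2.19-fold higher in the library labelled E14 than in that labelled E16 (log2 1.13, 1.01 to 1.26), the only 1 of 8 genes compared past 2-fold there, where 9.61% of all genes differed. Radial glia labelled E14 also carried more summed maturing neuron markers, 945 CPM against 313 and 367 CPM, and more summed intermediate progenitor markers, 1337 CPM against 604 and 959 CPM. Elavl3 in the microglial cluster differed the same way, at 60.4 CPM (47 UMIs in 26 cells), 1.36 CPM (39 cells) and 17.9 CPM (38 cells). The part of these in the Elavl3 difference was not tested.

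The 3 largest clusters of intermediate progenitors showed how the families were spread within that class. The cluster led by Efl1, Eomes and Neurog2 (959 cells, 58.5% labelled E18) held Elavl2 at 583 CPM, Elavl4 at 877 CPM and Elavl3 at 318 CPM. The cluster led by Ppp1r17, Ube2c and Hmmr, with mitotic genes among its leaders (408 cells, 51.5% labelled E18), held Elavl2 at 424 CPM, Elavl4 at 668 CPM and Elavl3 at 712 CPM. It also had the most Ptbp2 (267 CPM), the most Rbfox2 (317 CPM) and the least Ptbp1 (68.7 CPM) of the 3. The cluster with histone genes among its leaders (635 cells) had the most Ptbp1, at 127 CPM. The mitotic cluster also scored closest to the newborn neuron markers of the 3 and had none of the class markers among its leading genes, and the part of that in these levels was not tested. These values pool the 3 libraries.

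Of the Rbfox genes, whose proteins bind UGCAUG beside alternative exons, Rbfox2 gave close levels in the 3 libraries within each class. It stood at 57.7, 55.2 and 62.5 CPM in radial glia, 193, 215 and 229 CPM in intermediate progenitors, 502, 459 and 540 CPM in newborn neurons and 477, 438 and 472 CPM in maturing neurons. It was 8.57-fold, 8.19-fold and 8.52-fold higher in newborn neurons than in radial glia. Maturing over newborn neurons of the same library gave log2 ratios of -0.073, -0.068 and -0.19, none past 2-fold. Under the stricter cell filter, with 59 newborn neurons labelled E14, the E14 log2 ratio of newborn neurons over radial glia was 2.11 in place of 3.10, and that of maturing over newborn neurons 0.91 in place of -0.073. At 2000 UMIs a cell it was seen in 59.8%, 61.8% and 65.4% of newborn neurons. In radial glia it was seen in 9.24%, 9.05% and 10.5% of cells, against 12.3% of the non-neural cells, whose meningeal cells labelled E16 held 125 CPM. Without thinning the order was the reverse, with 49.5%, 50.2% and 51.8% of radial glia against 39.3% of the deeper non-neural cells, so no order is read from these shares.

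Rbfox1, the family member tied to maturing synapses and to human epilepsy and autism, appeared last. It stood at 3.97 CPM (22 UMIs), 0.132 CPM (6 UMIs) and 0.477 CPM (12 UMIs) in radial glia and 7.57, 2.90 and 3.30 CPM in intermediate progenitors. In newborn neurons it was 37.1 (33.3 to 41.2), 13.6 (9.45 to 18.9) and 23.4 CPM (20.3 to 26.7). In maturing neurons it was 213 CPM (208 to 219), 7.2 CPM (1.96 to 18.4, from 4 UMIs) and 102 CPM (96.1 to 109). Maturing neurons labelled E14 and E18 were thus 5.62-fold and 4.24-fold above newborn neurons, log2 2.49 (2.34 to 2.65) and 2.08 (1.88 to 2.29). Over the alternatives these ran from 1.34 at a clustering resolution of 2 to 4.09 under the stricter cell filter, and from 1.34 under the looser filter to 2.90 with first-round clusters only, all past 2-fold. The stricter filter left only 57 of 2159 maturing and 59 of 1126 newborn neurons labelled E14. Rbfox1 was the only 1 of the genes compared that was at least 2-fold higher in that step, in which 4.63% and 7.02% of all genes were. The library labelled E16 gave -0.83 (-2.36 to 0.51), with 0 of the 10 genes higher where 6.05% of all genes were.

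Rbfox1 also varied among the clusters of maturing neurons. Over the 6 clusters with at least 50 cells it ranged from 7.2 to 261 CPM. The 2 clusters mainly of the library labelled E14 held 175 and 261 CPM, those of the library labelled E18 30.2, 79.7 and 118 CPM, and the only cluster labelled E16 7.2 CPM. At 2000 UMIs a cell it was seen in 32.4% of maturing neurons labelled E14, in 0 of 60 labelled E16 (which allows up to 5% at this depth) and in 16.4% labelled E18, against 0.287% of non-neural cells. In radial glia it was seen in 0.272%, in 0 of 2906 cells (up to 0.103%) and in 0.113%. Unthinned, the shares were 79.0%, 4.92% and 46.5% in maturing neurons, 4.84%, 0.171% and 0.616% in radial glia and 1.72% in non-neural cells. Over the alternatives the log2 ratio of Rbfox1 in newborn neurons over radial glia ran from 1.75 to 5.25, 1.22 to 4.21 and 1.67 to 4.55, with so few UMIs in radial glia.

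Between the libraries labelled E14 and E18, Rbfox1 in maturing neurons was 2.07-fold higher in the first, log2 1.05 (0.96 to 1.15), 1 of 9 genes past 2-fold, where 4.16% of all genes differed. This stood at the edge of the threshold. It was 0.93 at a clustering resolution of 2, 0.98 with more doublets removed, 0.88 with each library clustered alone, 0.99 with 10 CPM added, 0.97 as a mean over cells and 0.87 with first-round clusters only, and 2.16 under the stricter cell filter. The last value rests on 57 maturing neurons labelled E14 and 351 labelled E18. As different clusters make up the class in the 2 libraries, their makeup and a difference within cells cannot be told apart.

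Rbfox3, whose protein is the neuronal nuclear antigen NeuN, was in intermediate progenitors already close to or above its level in newborn neurons. It stood at 5.05, 2.32 and 3.46 CPM in radial glia, 130, 52.0 and 93.3 CPM in intermediate progenitors, 97.0, 56.2 and 92.7 CPM in newborn neurons and 53.2, 81.0 and 44.6 CPM in maturing neurons. The ranges of the last 3 classes overlapped. Intermediate progenitors were 21.6-fold, 16-fold and 21.1-fold above radial glia. With radial glia at so few CPM this size depended on the settings: the log2 ratios of 4.43, 4.0 and 4.40 were 3.22, 2.33 and 2.94 with 10 CPM added, and the E16 value was 4.95 with radial glia that lack a UMI of 6 mitosis genes. All stayed past 2-fold. At 2000 UMIs a cell it was seen in 21.9%, 8.26% and 16.1% of intermediate progenitors and in 0 of 349 non-neural cells, which allows up to 0.860% at this depth (2.29% without thinning).

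From newborn to maturing neurons Rbfox3 was lower in the libraries labelled E14 and E18, at -0.86 (-0.97 to -0.74) and -1.04 (-1.21 to -0.87), and higher in that labelled E16, at 0.52 (0.02 to 1.00) from 45 UMIs. Only the E18 value passed 2-fold, and it was under the threshold in 9 alternatives, between -0.98 with median-of-ratios size factors and -0.48 under the stricter cell filter. Thinned to 2000 UMIs a cell, the E16 value was -1.42, so its sign rested on few counts. In intermediate progenitors Rbfox3 was 2.47-fold higher in the library labelled E14 than in that labelled E16, 1 of 2 genes of the 10 past 2-fold there with Rbfox1, where 10.7% of all genes differed.

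The Nova genes, which encode KH-domain splicing factors first known as antigens of a paraneoplastic movement disorder, differed in maturing neurons, where Nova2 was higher and Nova1 lower than in radial glia in every library. Nova2 stood at 26.7, 20.6 and 24.8 CPM in radial glia, 32.6, 49.9 and 39.3 CPM in intermediate progenitors, 66.6, 90.3 and 66.7 CPM in newborn neurons and 79.0, 72.0 and 76.5 CPM in maturing neurons. The ranges of the neuron classes overlapped and lay above those of both progenitor classes. It was 2.44-fold, 4.22-fold and 2.62-fold higher in newborn neurons than in radial glia. Under the stricter cell filter the E14 log2 ratio was -0.036 in place of 1.29. Over the alternatives the E16 log2 ratio of 2.08 ran from 1.39 to 2.95, and the E18 log2 ratio of 1.39 from 1.14 to 1.51. Nova2 was seen in 11.9%, 17.2% and 12.5% of newborn neurons at 2000 UMIs a cell, against 1.15% of non-neural cells.

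Nova1 was lower in maturing neurons than in radial glia in every library. It stood at 11.5, 16 and 18.0 CPM in radial glia, 15.1, 18.9 and 21.3 CPM in intermediate progenitors, 5.71 (4.29 to 7.45), 25.2 (19.4 to 32.1) and 8.80 CPM (6.99 to 10.9) in newborn neurons and 3.50, 3.60 (2 UMIs) and 2.67 CPM in maturing neurons. Newborn neurons over radial glia gave -0.90 (-1.38 to -0.42) and -0.96 (-1.28 to -0.64) in the libraries labelled E14 and E18 and 0.63 (0.26 to 0.98) in that labelled E16, none past 2-fold. Maturing neurons over radial glia gave -1.48, -1.88 and -2.37, all past 2-fold. With 10 CPM added in place of 1, the E14 and E16 values were -0.67 and -0.93, and the weakest E16 value over the alternatives was -0.83. The newborn neuron ratio passed 2-fold lower in 8 alternatives for E14, down to -1.95 thinned to 2000 UMIs, and in 7 for E18. For E16 it ran from 0.22 to 1.68, past 2-fold higher only with radial glia that lack a UMI of 6 mitosis genes.

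The high Nova1 value in newborn neurons labelled E16 came with other cell makeup. By cluster it was 26.5, 33.0 and 32.5 CPM in 3 clusters with Ebf2 or Lhx9 among their leading genes and 16.2 CPM in another, all of at least 96.1% cells labelled E16, against 4.22 CPM in the main cluster labelled E14 and 11.5 CPM in that labelled E18. The summed level of Cajal-Retzius markers in newborn neurons was 101, 521 and 191 CPM. Cells named from Cajal-Retzius markers held Nova1 at 25.5 CPM (E16) and 52.1 CPM (E18). Only 46.0% of those labelled E16, but 95.9% of those labelled E18, lay in the cluster led by Reln and Tp73, and the other clusters had at most 1 class marker among their leading genes. The part of such cells in the E16 value was not tested.

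Cells of other neuron lineages also had PTB ratios above those of radial glia. Cells named from Cajal-Retzius markers, a class of mixed clusters in the library labelled E16 (322 cells labelled E16, 74 labelled E18), had a Ptbp2 to Ptbp1 ratio of 5.67 (4.49 to 7.23) and 4.76 (3.07 to 7.65). Cells of the GABAergic lineage (56, 120 and 69 cells) gave 7.86 (3.57 to 20.5), 3.33 (2.32 to 4.86) and 11.2 (4.52 to 35.8). Elavl3 in the GABAergic lineage was 578, 400 and 592 CPM and Rbfox2 552, 245 and 726 CPM, so the E16 cells were lower in both. Rbfox1 was 12.4 CPM in Cajal-Retzius cells labelled E16 and 1.04 CPM (1 UMI) in those labelled E18.

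Cells of 3 kinds outside the neuron lineages gave lower ratios than radial glia in the library labelled E16, where radial glia gave 0.851. Choroid plexus, the epithelium that makes cerebrospinal fluid, gave 0.384 (0.292 to 0.501), erythroid cells 0.349 and meningeal cells 0.187 (0.127 to 0.267). In choroid plexus labelled E16 the level of Ptbp1 was 155 CPM and that of Ptbp2 59.4 CPM. The microglial cluster, with 26, 39 and 38 cells, held Ptbp1 at 83.6, 175 and 131 CPM and Ptbp2 at 12.9, 12.2 and 12.8 CPM.

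The 8 Hu, Rbfox and Nova genes were also counted per cell at 2000 UMIs. At least 3 of the 8 were seen in 1.36%, 1.07% and 2.38% of radial glia, 51.6%, 40.4% and 49.2% of intermediate progenitors, 53.4%, 54.5% and 57.3% of newborn neurons and 48.0%, 31.7% and 39.4% of maturing neurons. None of the 8 was seen in 52.4%, 54.4% and 47.0% of radial glia and in 3.83%, 3.18% and 2.53% of newborn neurons. Intermediate progenitors lay with the neurons and not with radial glia in this count.

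Between labels, most of the 10 genes, like most of all genes compared, differed by less than 2-fold within a class. In newborn neurons of the libraries labelled E14 and E18, 0 of 10 passed 2-fold, where 3.67% of all genes did, and the largest log2 differences were 0.65 for Rbfox1 (0.41 to 0.89), -0.55 for Nova1 and -0.52 for Elavl4 (-0.58 to -0.46). Under alternative clusterings, Rbfox1 or Nova1 passed the threshold, at up to 1.38 and -1.18. Newborn neurons labelled E14 over E16 had 2 of 10 past it, Rbfox1 at 1.39 and Nova1 at -1.96, where 10.8% of all genes were. In radial glia labelled E14 over E18, 0 of 8 passed, where 4.25% of all genes did, with Ptbp1 at -0.48 (-0.60 to -0.37) and Elavl3 at 0.59.

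Of 14 other neuronal splicing and RNA-binding regulators (the Celf, Srrm, Khdrbs and Cpeb genes and others), 10 of 11, 11 of 12 and 11 of 12 compared were at least 2-fold higher in newborn neurons than in radial glia, and 0 were lower, where 12.5%, 13.3% and 12.2% of all genes were higher and 18%, 17.7% and 16.8% lower. Their median log2 ratio was 2.06, 2.88 and 2.59. Srrm4, which promotes neuronal microexons and the neuronal form of REST, had the largest ratio by the mean of the 3 libraries: 283, 339 and 350 CPM in newborn neurons against 16.1, 11.9 and 12.1 CPM in radial glia, log2 4.06 (3.77 to 4.36), 4.73 (4.58 to 4.88) and 4.75 (4.59 to 4.91). Celf3 followed at 3.35, 4.24 and 4.2. The smallest by that mean were those of Mbnl2, at -0.98, 1.62 and 1.34, and of Cpeb1, which had 0 to 2 UMIs in these classes and was not compared. With the stricter cell filter the E14 count was 6.

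Of 25 broad or progenitor regulators, 0 were at least 2-fold higher, and 6 of 23, 5 of 23 and 3 of 22 compared were at least 2-fold lower. Of all genes compared, 12.5%, 13.3% and 12.2% were higher and 18%, 17.7% and 16.8% lower. The median log2 ratio of the list was -0.64, -0.59 and -0.60. The lowest by their mean over libraries were Raver2, a PTB partner protein, at -2.99, -2.44 and -2.96, and Mbnl3, whose UMIs in newborn neurons were 4, 0 and 2 and in radial glia 55, 585 and 223. The highest by that mean were Hnrnpa1, at 0.36, 0.19 and 0.38, and Matr3, at 0.27, 0.19 and 0.30. The others at least 2-fold lower in some library, named after their values were seen, were Qki, a splicing factor of radial glia, in all 3 (-3.42, -1.84 and -2.39), Rbm38 in those labelled E16 and E18, Raver1 in that labelled E16, and Msi2, Srsf1 and Srsf2 in that labelled E14.

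Of 9 genes tied to the PTB and REST circuit, 5, 4 and 5 were at least 2-fold lower and 3, 2 and 3 at least 2-fold higher in newborn neurons, beside the same shares of all genes (18%, 17.7% and 16.8% lower, 12.5%, 13.3% and 12.2% higher), with a median of -1.20, -0.88 and -1.41. Rest, the repressor of neuronal genes outside neurons, stood at 22.7, 35.1 and 33.8 CPM in radial glia and 0.952, 4.65 and 2.72 CPM in newborn neurons, log2 -3.60, -2.68 and -3.23. Ctdsp1, a phosphatase that works with REST, gave -2.44, -1.97 and -2.80. Gabbr1 gave 1.17, 2.11 and 1.65 and Dlg4, whose transcript PTB proteins hold back, 1.62, 1.68 and 1.53. The others past 2-fold, named after their values were seen, were Ctdsp2 and Bak1, lower in all 3 libraries, Ctdspl, lower in those labelled E14 and E18, and Rcor2, a REST corepressor, higher in the same libraries. These lists were chosen with knowledge of neuronal biology and of earlier results of these data, so their direction is not independent evidence.

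**Figure D5:**
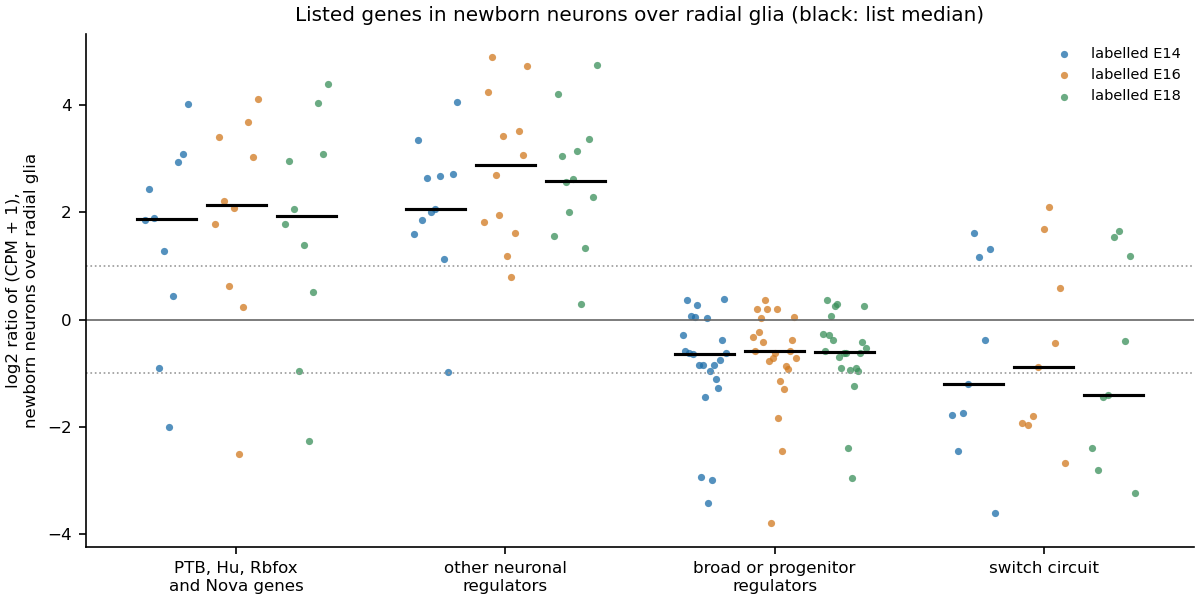
Log2 ratio of (CPM + 1) in newborn neurons over radial glia for the 10 genes and for 3 lists of related genes, 1 point per gene with a mean of at least 5 CPM, by library label, with the list median as a black bar and dotted lines at 2-fold. The medians of other neuronal regulators are 2.06 to 2.88 and those of broad or progenitor regulators -0.64 to -0.59.

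For each gene the most similar genes were found by Pearson correlation of log2(CPM + 10) over the 21 class and library sums with at least 50 cells, among 9931 genes. These sums share libraries and lineage, and the values are a description. Elavl2 and Elavl4 were each other's closest (r = 0.98). Ptbp1 was closest to Smo (0.97), the Hedgehog signal transducer, and Timeless (0.96), and Ptbp2 to Nabp2 (0.97) and Mex3a (0.97). Elavl3 was closest to Dpysl3 (0.97) and Tubb3 (0.96), both neuronal cytoskeleton genes, and Rbfox2 to Dlgap4 (0.97) and Cd24 (0.97). Rbfox3 was closest to Mgat5b (0.93), Nova2 to Septin3 (0.96), and Nova1 to Maml3 (0.88). Rbfox1 had its closest named gene in Fbxo44 (0.89), after an unnamed locus (0.92). Ptbp1 and Ptbp2 themselves correlated at 0.03.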

How the data were processed

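Per the submitters' processing notes, the authors ran Cell Ranger 6.0.1, and the notes name the rat assembly mRatBN7.2. The gene annotation was not given in the sources used here. The deposited matrices hold whole-number UMI counts per gene and cell barcode, not normalized. UMIs collapse PCR copies, so intervals treat them as molecules and cover counting error only.

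Cells with at least 1000 genes and at most 10% UMIs from 13 mitochondrial genes were kept (4444, 5193 and 5690). The top Scrublet scores, 0.8% per 1000 cells, were removed as likely doublets (158, 216 and 259 cells). In Scanpy 1.11.5 the libraries were clustered together on 2000 variable genes, leaving out the 10 genes, the gene lists and mitochondrial, ribosomal, globin and sex-linked genes, with 30 components, 15 neighbours and Leiden resolution 1 (leidenalg 0.10.2). The 24 clusters were named from marker lists. The rule for scoring the markers was settled after the clusters were seen, as was splitting again, once, any cluster of at least 100 cells that was unnamed or held markers of several classes. Names rebuilt this way may differ from the authors'.

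Counts were summed per class and library and scaled to CPM, with exact Poisson intervals at 95%. Classes with under 50 cells in a library entered no ratio, and where a level of one is printed its cell number stands beside it. Ratios add 1 CPM, need a mean of at least 5 CPM, and count as called past 2-fold. UMI ratios and shares have exact binomial (Clopper-Pearson) intervals, and the limit for a count of 0 is 3 counts. With 1 library per label, and libraries of different labels not treated as replicates, no test was run. The code was tested on simulated data. No sample column was left unused.

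The text names all 10 genes, the genes with the largest and smallest mean ratio of each list, and the closest genes by correlation (genes with at least 20 CPM). The genes and lists were chosen with earlier results of these data known. Of 10 listed circuit genes 9 were matched, and the host gene of miR-124 was not analysed here. Alternatives cover the cell filter, doublet rate, clustering, scaling, pseudocount, minimum level, depth and cycling cells, and 3 were added after the data were seen. Python 3.11.15, numpy 2.4.6, scipy 1.17.1 and pandas 2.3.3 were used.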

Additional observations from a re-analysis of the deposited data

Results flagged for a closer look

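Each result here had opposite signs in different libraries with 1 library per label, and the difference between libraries was not tested. Nova1 in newborn neurons over radial glia had a log2 ratio of 0.63 in the library labelled E16, against -0.90 in that labelled E14 and -0.96 in that labelled E18; these signs held in the alternatives run. Ptbp2 in maturing neurons over radial glia was 0.15 in the library labelled E14 and 0.33 in that labelled E16, against -0.18 in that labelled E18. Over the alternatives the Ptbp2 value for E14 ran from -0.16 to 0.29 and that for E18 from -0.31 to 0.12, so their signs were not stable. Elavl3 in maturing over newborn neurons was 0.15 in the library labelled E14, against -0.33 in that labelled E16, and the E14 value ran from -0.051 to 0.21. Rbfox3 in the same step was 0.52 in the library labelled E16, against -0.86 in that labelled E14 and -1.04 in that labelled E18, and the E16 value was -1.42 thinned to 2000 UMIs a cell. The E16 values of maturing neurons rest on 61 cells.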

How the results depend on the processing

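Over 15 alternatives, ratios to radial glia, of maturing to newborn neurons, and of E14 to E18 within each neuron class were recomputed. Those called for the 10 genes gave 1022 values, of which 974 stayed past 2-fold and 1021 kept their direction. Of the other recomputed ratios, 42 of 821 values newly passed. The exception in direction was Nova2 in newborn neurons labelled E14 over radial glia, at -0.036 under the stricter cell filter. Ratios of newborn neurons to intermediate progenitors, and all other ratios between labels, were not recomputed. The log2 shift of the Ptbp2 to Ptbp1 ratio from radial glia to newborn neurons was 1.41, 1.92 and 2.11 (E14, E16, E18) under the stricter filter, 2.07, 2.25 and 2.30 with radial glia that lack a UMI of 6 mitosis genes (added after the data were seen), 2.87 for E14 thinned to 2000 UMIs and 3.02 for E18 at resolution 2, and the cause was not tested. Of the 10 genes, those differing 2-fold between newborn neurons labelled E14 and E18 numbered 0, but 1 under the stricter filter (Nova2, -1.04), at resolution 0.5 (Nova1, -1.13), at resolution 2 (Rbfox1, 1.38) and with listed genes in the clustering (Rbfox1, 1.15), and 2 with first-round clusters only (Rbfox1, 1.03, and Nova1, -1.18). Median-of-ratios size factors moved the median of all genes in maturing neurons labelled E14 over radial glia from -0.22 to -0.08. In the lists, neuronal regulators higher in newborn neurons labelled E14 numbered 6 under the stricter filter in place of 10. Circuit genes lower there numbered 3 in place of 5 under the stricter filter and with 10 CPM added. Broad regulators lower numbered 3 with 10 CPM added and 2 without mitotic radial glia in place of 5 for E16, and 6 in place of 3 for E18 at resolution 2.

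Radial glia without a UMI of any of 9 cycling genes numbered 10, 5 and 19, too few for a value, so that alternative was not run. Too few newborn neurons labelled E16 were left at resolution 0.5 and with first-round clusters only, and too few maturing neurons labelled E16 under the stricter filter and most other clusterings. The stricter filter left 59 newborn and 57 maturing neurons labelled E14, so its E14 values rest on few cells. The E16 maturing neurons are limited by their 61 cells, where Rbfox1 rests on 4 UMIs, Ptbp1 on 7 and Nova1 on 2.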
